A study of Mus musculus with 8 samples.

Results

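The 50 genes described here encode proteins that carry chromosomes through mitosis: kinases and phosphatases of mitotic entry, the transcription factor Foxm1, the chromosomal passenger complex, the spindle assembly checkpoint, regulators of anaphase and cohesion, the inner and outer kinetochore, proteins of chromosome structure, and proteins of the spindle and of cytokinesis. They were chosen by name and known role, with earlier results of these data known. All 50 were among the 27179 genes of the expression table, and all 50 passed the filter on low values, as did 11406 genes in all. The cells were C2C12, an immortalized line of mouse myoblasts that divides in rich medium and fuses into myotubes when serum is withdrawn. Proliferating cultures (GM) were taken at 50% confluence in high glucose DMEM with 10% fetal bovine serum. Differentiating cultures (3d DM) had passed 90% confluence and were kept for 3 days in the same base medium with 2% horse serum, and the labels give no other treatment. Polyadenylated RNA was sequenced before (input, RNA-seq) and after precipitation with an antibody against N6-methyladenosine (m6A, MeRIP-seq), with 2 input and 2 immunoprecipitated libraries in each state. The records do not say whether the replicates came from separate cultures, so the tests measure the spread between these libraries.

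As background, a dividing cell condenses its duplicated chromosomes, builds a kinetochore on each centromere and attaches it to spindle microtubules. The spindle assembly checkpoint holds back the anaphase-promoting complex until every kinetochore is attached, after which cohesin is cut, the chromatids part and the cell is cleaved. Most genes of this machinery are transcribed late in the cell cycle and kept low in resting cells, and myoblasts leave the cell cycle permanently when they become myotubes. m6A is a methyl mark placed on adenosines of messenger RNA, mostly within a short consensus sequence.

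The libraries were checked against their labels with marker genes. All 7 myotube markers, among them the transcription factor Myog, the embryonic myosin Myh3 and the fusion factor Mymk, were higher in both 3d DM libraries than in both GM libraries. Myh3 had a normalized signal of 1068 and 273 in GM and of 33485 and 51674 in 3d DM. GM replicate 1 was higher than GM replicate 2 in all 7 of them, with a median log2 difference of -2.62 (replicate 2 minus replicate 1). All 5 markers of the myogenic line passed the filter, but they did not behave alike. Myod1 stood at 1713 and 1129 in GM and at 1016 and 1645 in 3d DM. Cdh15, at 4813 and 2675 and at 2914 and 4990, also overlapped between the states, as did the low Pax7, at 55.7 and 50.2 and at 51.5 and 77.8. Myf5 was higher in GM, at 397 and 355 against 58.5 and 121. Des was higher in 3d DM, at 12764 and 5945 in GM against 21225 and 23528. Of 8 markers of blood, endothelial, fat, epithelial and glial cells, none passed the filter, and the highest value of any was 26.4, for Cd68 in GM replicate 1. The deposited columns were scaled to nearly the same total, of which 1 entry without a gene symbol took between 24.4% and 41.3%, the most in 3d DM replicate 1. In these columns 93.7% of all tested genes were higher in 3d DM replicate 2 than in 3d DM replicate 1, and the median log2 difference between the states over all tested genes was 0.22 towards GM.

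The mitosis and kinetochore genes were lower after 3 days of differentiation. In 50 of 50 members both GM libraries were above both 3d DM libraries, against 37% of all tested genes. In 49 of 50 members the difference passed the test (limma on log2(value + 1), Benjamini-Hochberg adjusted p under 0.05 over 11406 genes), against 9.96% of all tested genes. No member was higher in 3d DM, where 7.01% of tested genes were. Their median log2 fold change was 2.65, with a range from 0.94 to 3.45, and the median ratio of GM to 3d DM means was 6.08. Ranked by log2 fold change, 48 of the 50 lay among the top 5% of tested genes and 28 among the top 2%. Standard errors, between 0.42 and 0.57, followed the trend with intensity and not the spread of each gene's own replicates (the prior degrees of freedom were infinite), so the very small adjusted p-values given for single genes rest on a spread pooled over all genes and not on the 2 libraries of each state. After rescaling by median-of-ratios factors, which brought the median of all genes to 0.00, the members' median was 2.42, their range 0.71 to 3.23, and 49 were called. In that fit the prior degrees of freedom were 3.82, and the lowest adjusted p of a member was 0.00129 (limma), where it was 8.05e-13 as deposited. In bulk RNA, a smaller share of dividing cells and less of each RNA per cell cannot be told apart.

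**Figure D1:**
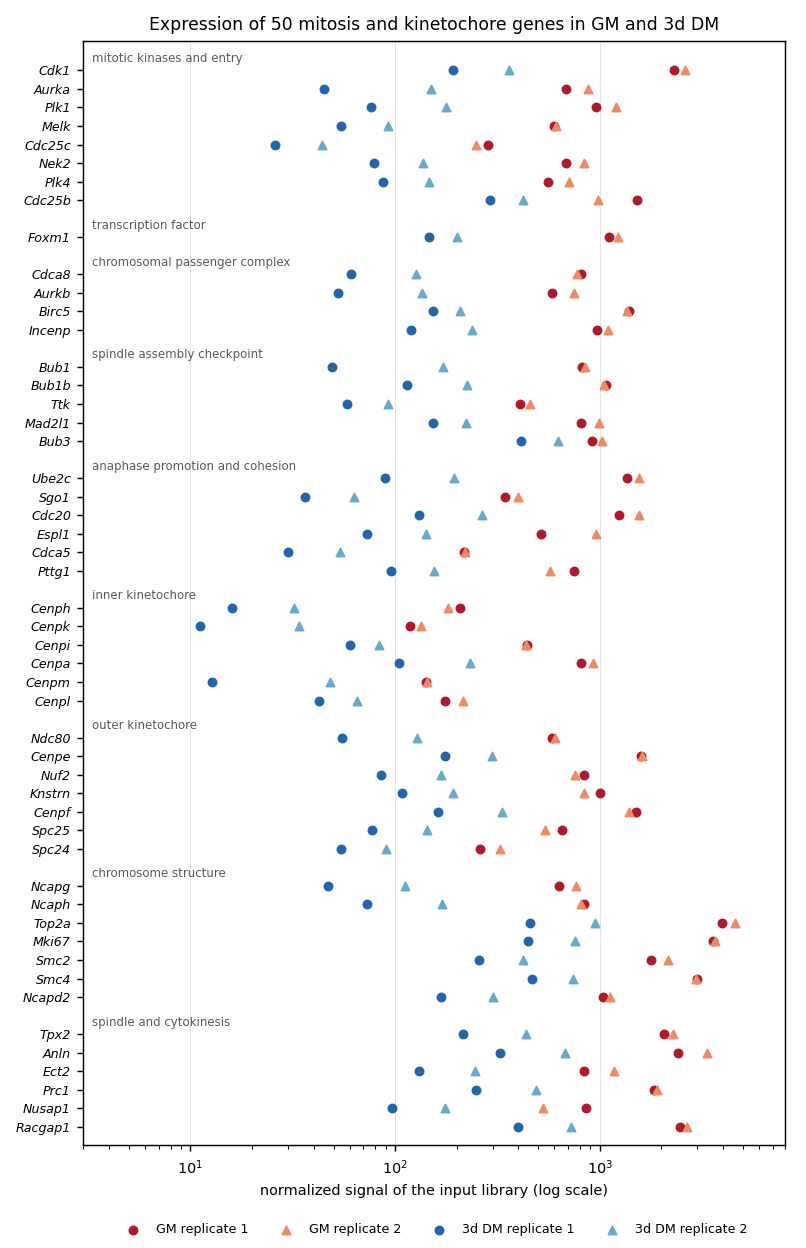
Normalized signal of each of the 50 members in the 4 input libraries (log axis), ordered by role and by log2 fold change within a role, with GM in red and orange and 3d DM in dark and light blue. In every member both GM points lie to the right of both 3d DM points, and 3d DM replicate 2 lies to the right of 3d DM replicate 1.

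The 3d DM libraries were not alike in these genes. All 50 members were higher in 3d DM replicate 2 than in replicate 1, by a median log2 difference of 0.89 and a range from 0.45 to 1.84, where the median of all tested genes was 0.51. Between the GM libraries the median difference of the members was 0.13 (replicate 2 minus replicate 1), with 35 of 50 higher in replicate 2, against 32.5% of all tested genes. Fewer members passed the test without 3d DM replicate 1 than without any other library, and so did fewer of all tested genes towards GM. Without that library the members' median log2 fold change was 2.23, where that of all tested genes was -0.03. Without any other single library the members' median was between 2.65 and 3.15, where that of all tested genes was between 0.11 and 0.47. No member passed when all 27179 genes of the table entered the limma fit, where 0.27% of all genes were called higher in GM. The prior degrees of freedom of that fit were 0.79. The lowest adjusted p of a member in it was 0.132 (limma), and 49 had an unadjusted p under 0.05.

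Many promoters of late cell cycle genes hold a cell cycle genes homology region (CHR) with a CCAAT box upstream of it, and the CHR is a known binding element of the DREAM and MuvB complexes. RefSeq promoters (GRCm38.p6, 250 bases before to 50 after a transcript start) were found for 43 of the 50 members. Searched on both strands, the CHR (TTTGAA or TTCGAA) stood in the promoters of 29 of these 43 genes (67.4%), compared with 16.3% of 8911 tested genes with a promoter. A CCAAT box (CCAAT) stood in 31 of 43 (72.1%), compared with 43.5%, and both motifs together in 26 (60.5%), compared with 7.05%. An E2F site (TTTGGCGC, TTTCCCGC, TTTCGCGC or TTTGCCGC) was found in 5 of 43 (11.6%), compared with 5.02%. These are matches of letters, not measured binding. Members with the CHR had a median log2 fold change of 2.63 (29 genes) and members without it 2.69 (14 genes), and whether the sets differ was not tested. The 250 bases before the start are shown for the 3 members with the largest log2 fold change among those with the CHR, because they place both motifs in genes that fell most. Capitals mark CHR and CCAAT matches on either strand (TTCAAA and ATTGG are the reverse strand forms).
Ube2c, chr2:164769679-164769928, plus strand: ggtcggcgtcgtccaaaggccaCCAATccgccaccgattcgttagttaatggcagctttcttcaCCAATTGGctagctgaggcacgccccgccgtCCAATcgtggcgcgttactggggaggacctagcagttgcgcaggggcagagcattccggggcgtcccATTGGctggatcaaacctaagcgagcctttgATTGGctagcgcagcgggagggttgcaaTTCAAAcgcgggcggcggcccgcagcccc
Ncapg, chr5:45669675-45669924, plus strand: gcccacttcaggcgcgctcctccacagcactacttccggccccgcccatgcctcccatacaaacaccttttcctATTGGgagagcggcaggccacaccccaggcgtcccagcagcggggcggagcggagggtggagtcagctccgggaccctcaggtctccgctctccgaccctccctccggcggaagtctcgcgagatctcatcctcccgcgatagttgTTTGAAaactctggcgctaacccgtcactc
Cdk1, chr10:69352913-69353162, minus strand: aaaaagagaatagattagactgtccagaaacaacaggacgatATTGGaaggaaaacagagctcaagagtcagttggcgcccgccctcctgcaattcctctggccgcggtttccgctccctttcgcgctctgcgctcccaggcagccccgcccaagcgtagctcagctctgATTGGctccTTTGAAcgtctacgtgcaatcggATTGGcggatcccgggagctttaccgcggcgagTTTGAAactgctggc
In Ube2c the CHR began 29 bases before the start and the nearest CCAAT box 57 bases before it. In Ncapg they began 30 and 176 bases before the start. Cdk1 held a CHR at 15 and at 71 bases, with CCAAT boxes at 48, 80 and 208 bases.

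All 8 genes of mitotic entry fell. Cdk1 (chromosome 10, 69335146 to 69352912), the kinase that drives entry into mitosis, had a normalized signal of 2301 and 2619 in GM and of 193 and 360.1 in 3d DM. Its means were 2460.2 ± 225 and 277 ± 118 (SD, n = 2 each), an 8.90-fold difference and a log2 fold change of 3.21 ± 0.43 (SE, adjusted p = 6.6e-12, and 0.00179 after median-of-ratios rescaling, limma). Cdc25b, a phosphatase that activates Cdk1, changed least of this group. It stood at 1524 and 983 in GM and at 292 and 420.4 in 3d DM, a log2 fold change of 1.80 ± 0.44 (adjusted p = 0.000484, limma). That change was 1.49 without GM replicate 1, 2.12 without GM replicate 2, 1.54 without 3d DM replicate 1 and 2.06 without 3d DM replicate 2. Its call, like those of most members, did not hold in every fit with a single library left out. The GM libraries of Cdc25b differed more than those of Cdk1 but did not overlap with 3d DM. Between these lay Aurka and Plk1, kinases of centrosome maturation and spindle assembly, at 3.21 and 3.19, the kinase Melk at 3.08, the phosphatase Cdc25c at 2.94, the centrosomal kinase Nek2 at 2.85 and Plk4, which licenses centriole duplication, at 2.47. Foxm1, a transcription factor that activates late cell cycle genes, stood at 1112 and 1232 in GM and at 146 and 201 in 3d DM, at a log2 fold change of 2.76 ± 0.45 (adjusted p = 2.2e-08, limma).

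The chromosomal passenger complex corrects faulty attachments of kinetochores and later moves to the spindle midzone. Its 4 subunits fell together, by 2.60 to 3.15 on the log2 scale. The kinase subunit Aurkb stood at 587 and 747 in GM and at 52.4 and 136 in 3d DM. Cdca8 (borealin) changed most, from 807 and 773 to 61 and 126, and the scaffold Incenp least, from 969 and 1098 to 119.9 and 237. Birc5 (survivin), which brings the complex to centromeres, changed by 2.94. The 4 subunits were also near each other in level per length in GM, between 306 and 486 per kb of RefSeq exon.

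Of the 5 checkpoint genes 4 fell and Bub3 did not pass the test. Bub3, a binding partner of Bub1 and Bub1b that also has roles outside mitosis, stood at 915 and 1029.6 in GM and at 411 and 624 in 3d DM. The libraries of the states did not overlap, but the log2 fold change was 0.94 ± 0.44 (adjusted p = 0.137, limma) and 0.71 after median-of-ratios rescaling (adjusted p = 0.0535, limma). With trimmed-mean rescaling it passed (adjusted p = 0.0476, limma). In 3d DM Bub3 had the highest level per length of all 50 members, 237 per kb. Its partner Bub1, the kinase that marks centromeres, fell most of the group, from 816 and 850.0 to 49 and 172, a log2 fold change of 3.16 ± 0.46. The pseudokinase Bub1b changed by 2.72, the kinase Ttk by 2.54 and Mad2l1, which inhibits Cdc20, by 2.27.

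Among the 6 regulators of anaphase and cohesion, Ube2c had the largest log2 fold change of all 50 members. Ube2c (chromosome 2, 164769929 to 164772902), the ubiquitin-conjugating enzyme of the anaphase-promoting complex, stood at 1361 and 1549 in GM and at 89.3 and 194 in 3d DM, a 10.3-fold difference of means and a log2 fold change of 3.45 ± 0.45 (adjusted p = 8.05e-13, and 0.00216 after median-of-ratios rescaling, limma). It also had the highest level per length in GM, 1563 per kb. Sgo1, which protects centromeric cohesin, stood at 344 and 399 in GM and at 36.3 and 63.2 in 3d DM. Pttg1 (securin), the inhibitor of the cohesin-cutting protease separase, changed least, from 751 and 574 to 95.2 and 156. The separase gene Espl1 changed by 2.78, Cdc20, the activator of the anaphase-promoting complex, by 2.90 and Cdca5 (sororin), which stabilizes cohesin, by 2.42. All 6 passed the test.

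The inner kinetochore sits on centromeric chromatin, and all 6 of its members fell. Cenph changed most, from 208 and 182 in GM to 15.9 and 32.2 in 3d DM, a log2 fold change of 3.04 ± 0.54. Cenpl changed least, from 174 and 215 to 42.5 and 65.3, a log2 fold change of 1.86 ± 0.51 (adjusted p = 0.00295, limma). The call of Cenpl, like those of most members, did not hold in every fit with a single library left out. The histone variant Cenpa, which marks the centromere, changed by 2.47, and Cenpi, Cenpk and Cenpm by 2.61, 2.62 and 2.46. Cenpk, Cenpm, Cenpl and Cenph had the lowest GM means of the 50, between 126 and 195, whereas Cenpa stood at 810 and 925 in GM. Cenpk had 54.5 per kb in GM, the least of the 50, and its 3d DM values of 11.2 and 33.9 differed from each other more than those of most members.

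The outer kinetochore binds the microtubule, and all 7 of its members fell. The Ndc80 complex contributed 4. Ndc80 stood at 588 and 604 in GM and at 54.8 and 127 in 3d DM, and Nuf2 at 841 and 759 and at 85.3 and 168. Spc25 changed by 2.48, and Spc24 changed least of the 7, from 259 and 326 to 54.2 and 89.8, a log2 fold change of 2.04 ± 0.49. The call of Spc24, like those of most members, did not hold in every fit with a single library left out. Cenpe, a kinesin that brings chromosomes to the spindle equator, stood at 1598 and 1612 in GM and at 175 and 296 in 3d DM. Cenpf, a large protein of the kinetochore corona, stood at 1500.2 and 1389 and at 162 and 333. Knstrn, a kinetochore and spindle adaptor, stood at 1002 and 837 and at 108 and 193. Apart from Spc24, these genes lay within a narrow band of log2 fold change, 2.48 to 2.82.

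The 7 genes of chromosome structure held the most abundant RNAs of the list. Top2a, the topoisomerase that untangles chromatids, stood at 3945 and 4606 in GM and at 457 and 951 in 3d DM. Mki67, which coats mitotic chromosomes and serves as a marker of dividing cells, stood at 3586 and 3659 and at 446 and 760.4. The condensin ATPases Smc2 and Smc4 stood at 1774 and 2159 and at 2999 and 2957 in GM, and at 258 and 421 and at 465 and 743 in 3d DM. The other condensin subunits spanned the range of the group. Ncapg changed most, from 629.6 and 766 to 47.1 and 112 (log2 fold change 3.24 ± 0.47), Ncaph changed by 2.88, and Ncapd2 changed least, from 1038 and 1125 to 167 and 302 (2.26 ± 0.44). All 7 passed the test.

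The 6 genes of the spindle and of cytokinesis fell by 2.26 to 2.82 on the log2 scale. Tpx2, the activator of Aurka on spindle microtubules, changed most, from 2069.9 and 2287 in GM to 215 and 437 in 3d DM. Racgap1, a subunit of the centralspindlin complex, changed least, from 2477 and 2681 to 399 and 727. Nusap1, a microtubule-bundling protein, stood at 853 and 527 in GM and at 96.7 and 175 in 3d DM, so its GM libraries differed more than its partners' did. The midzone bundler Prc1 changed by 2.42, the exchange factor Ect2 by 2.46 and the contractile ring protein anillin (Anln) by 2.60. For Prc1 22.7% and for Ncapg 20.1% of the exon length overlapped a gene on the other strand (Rccd1 and Lcorl), and whether reads were counted by strand is not given in the sources used here.

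**Figure D2:**
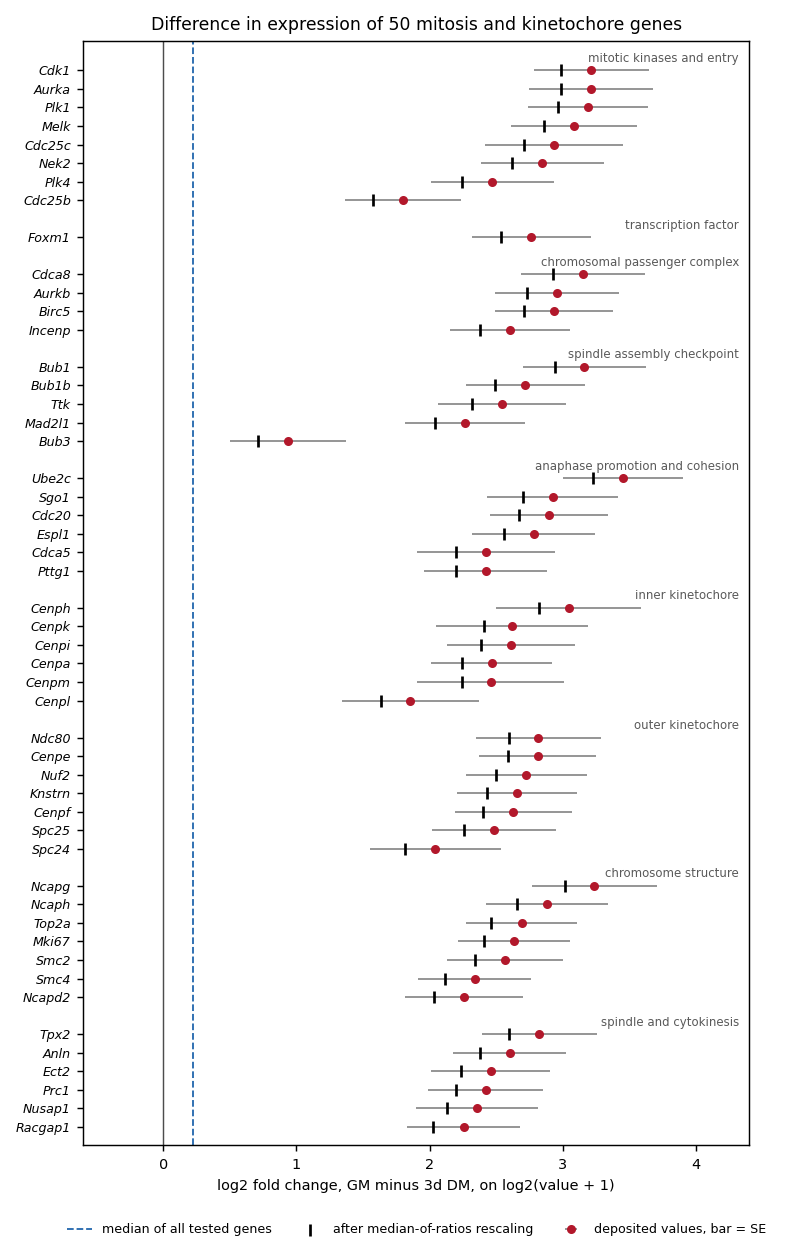
Log2 fold change of each member (GM minus 3d DM, on log2 of value + 1) with its standard error, from 2 libraries per state, and the same value after median-of-ratios rescaling (black bars). The dashed line is the median of all tested genes, 0.22, and only the bar of Bub3, at 0.94, comes near it.

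A second list held 98 other genes of mitosis, all of which passed the filter. Of these, 52 were higher in GM by the test, none was higher in 3d DM and 46 were not called, with a median log2 fold change of 1.44. The shares of all tested genes called were 9.96% towards GM and 7.01% towards 3d DM. In the outer kinetochore 14 of 16 were called (median 2.38), in the inner kinetochore 11 of 15 (1.73), in mitotic entry and exit 8 of 11 (2.08), and in the spindle and cytokinesis group 11 of 19 (1.64). In condensin and cohesin 3 of 14 were called (0.83), in the DREAM and MuvB group 3 of 6 (0.72) and in the anaphase-promoting complex 2 of 17 (0.35), a share near that of all tested genes. The largest changes were those of Mybl2, a transcription factor that joins the MuvB complex in dividing cells, at 3.80 ± 0.52 (adjusted p = 1.22e-11, limma), Fbxo5, an inhibitor of the anaphase-promoting complex, at 3.35 ± 0.48, and the histone kinase gene Haspin at 3.09 ± 0.56. At the other end, Ensa stood at 662 and 587 in GM and at 811 and 1216 in 3d DM (log2 fold change -0.67 ± 0.43, adjusted p = 0.345, limma), Lin37 was at -0.41 ± 0.49 and Anapc7 at -0.23 ± 0.45, and none of the 3 passed the test. The 2 genes called in the anaphase-promoting complex group were Fbxo5 and Ube2s. The complex had Ube2c and Cdc20 among the members with large changes, beside core subunits mostly with small ones. Cdc27, for example, stood at 1258 and 1089.8 in GM against 815 and 1092 in 3d DM. The core subunit with the largest change was Anapc15, at 1.33 ± 0.51 (adjusted p = 0.052, limma).

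**Figure D3:**
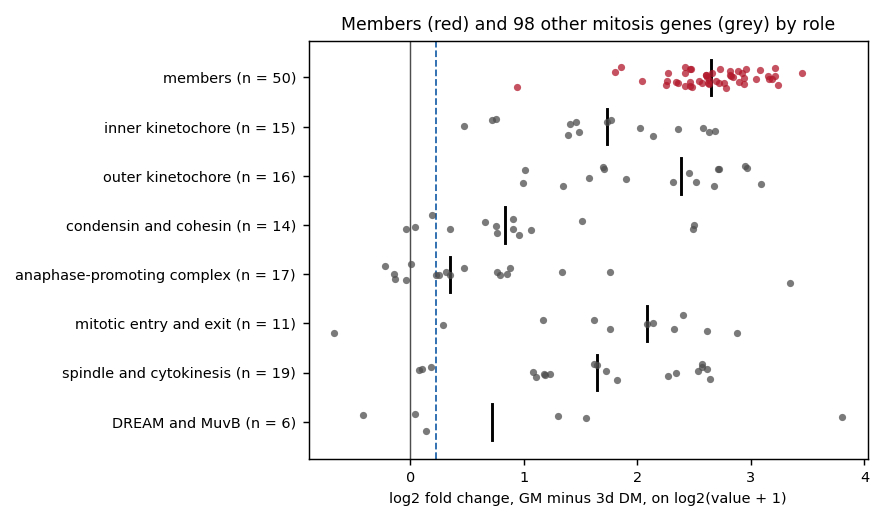
Log2 fold change (GM minus 3d DM) of the 50 members in red and of 98 other mitosis genes in grey by role, 1 point per gene, with the median of each group as a black bar and the median of all tested genes as a dashed line. Medians run from 2.65 for the members and 2.38 for the outer kinetochore to 0.35 for the anaphase-promoting complex.

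m6A peaks were then counted on the same genes. The peaks were called by the authors in each immunoprecipitated library against its own input, so each list is 1 replicate. A peak on a member was found for 44 and 42 of the 50 genes in the GM lists and for 27 and 16 in the 3d DM lists. Over the 11253 tested genes with a symbol, the shares were 63.8% and 60.4% in GM against 62.8% and 53.5% in 3d DM. The difference of 21.5 members between the states had an exact permutation p of 0.333, two-sided, which is the smallest that 2 lists against 2 can give. The input signal of the members was also lower in 3d DM, by a median ratio of 6.08, so that fewer molecules of each RNA and a smaller modified share of them cannot be told apart by these counts. With peaks of at least 4-fold enrichment, the numbers were 25 and 19 in GM against 19 and 13 in 3d DM, and the lists of the states touched.

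The members fell into a few patterns of calling. A peak in both GM lists and in neither 3d DM list was found for 15 of 50 members, against 2.67% of tested genes. These were Cdk1, Cdc25b, Cdc25c, Plk1, Aurka, Melk, Bub1, Mad2l1, Pttg1, Espl1, Cenpa, Cenph, Cenpm, Ncaph and Ect2. For 11 members, among them Foxm1, Birc5, Plk4, Bub1b, Spc24 and Prc1, a peak was called in both GM lists and in 3d DM replicate 1, against 7.4% of tested genes. A peak in all 4 lists was found for 16 members, against 42.6% of tested genes. Nek2 and Cenpk had a peak in GM replicate 1 alone, as had 2.91% of tested genes. No list had a peak on 6 members, against 23.8% of tested genes. These were Bub3, Ttk, Cdc20, Cdca5, Cenpi and Ncapd2. Their GM signals ran from 218 and 221 in Cdca5 to 1245 and 1557 in Cdc20. Peaks were called in both GM lists on Cenpm, at 141 and 143. Whether peak calling followed the signal was not tested. The 16 genes with a peak in all 4 lists had a median exon length of 4.10 kb and a median 3d DM signal of 165, and the 15 with peaks in the GM lists alone had 2.70 kb and 121.

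**Figure D4:**
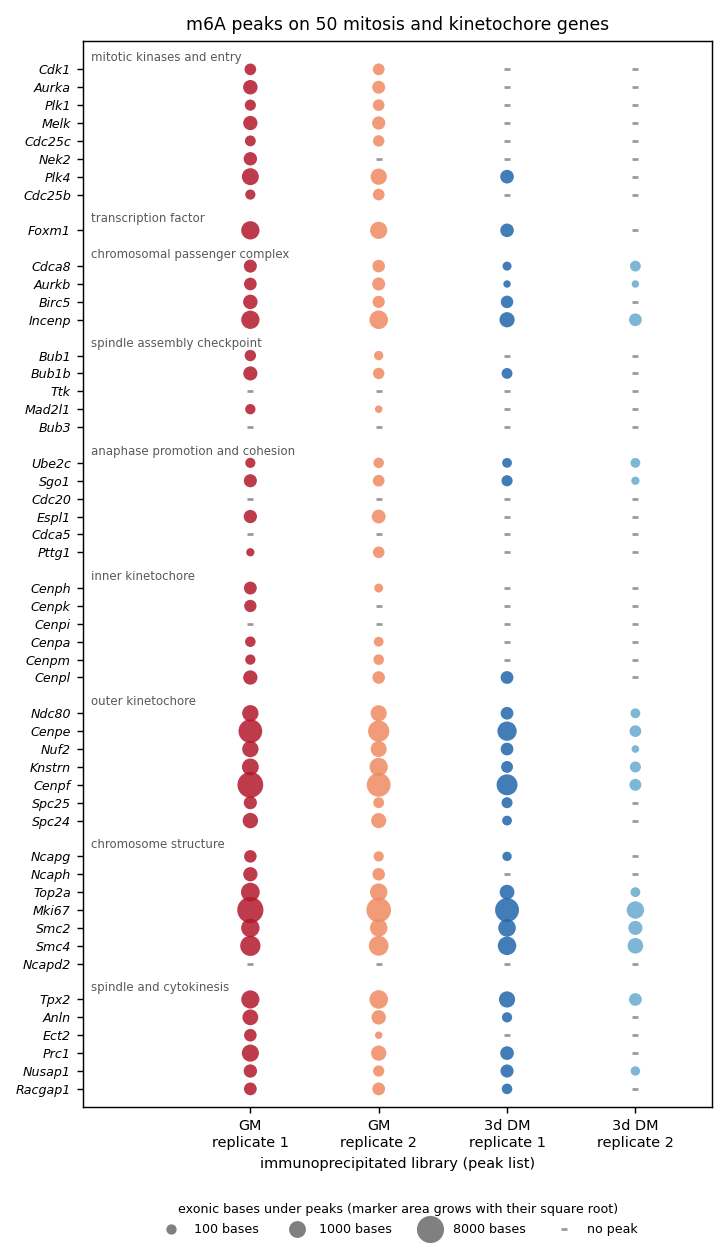
Exonic bases under m6A peaks of each member in each of the 4 peak lists. The marker area grows with the square root of the number of bases, and a dash stands for no peak. Markers are seen for 44 and 42 members in GM and for 27 and 16 in 3d DM, and they are larger in GM in most genes with a peak in all 4 lists.

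The summed length under peaks was also smaller in 3d DM. The peaks together covered 62083 and 48401 exonic bases of the members in GM against 27265 and 6918 in 3d DM, without the lines of Ube2c described next. All peaks of the lists covered 5536709 and 4574279 bases in GM against 5230264 and 3329467 in 3d DM. In Mki67 the covered length was 9125 and 7189 bases in GM, in 2 and 4 stretches, and 6360 and 1774 bases in 3d DM, in 14 and 8 stretches. In Cenpf it was 8585 and 6244 bases in GM against 3731 and 394 in 3d DM, and in Cenpe 6147 and 3958 and 2705 and 362. In some members the libraries of the states overlapped. In Smc2, 3d DM replicate 1 had 1862 bases and GM replicate 2 had 1803, and in Nusap1, Birc5, Cenpl and Spc25, too, 3d DM replicate 1 was above GM replicate 2. On Mki67 the lists gave few broad peaks in GM and more, shorter ones in 3d DM. Its input signal was also lower in 3d DM, at 446 and 760.4 against 3586 and 3659 in GM. Whether lower input signal made peaks shorter or the covered length smaller was not tested. The median peak line on a member spanned 359 and 270.0 exonic bases in GM against 239 and 164 in 3d DM. Over all lines of the lists the medians were 268 and 241 in GM against 257 and 210.0 in 3d DM. Of the lines on members, 61.1% and 63.3% lay wholly in coding sequence in GM against 83.7% and 89.7% in 3d DM, while over all lines it was 50.4%, 45.5%, 50.4% and 50.5%. Lines are given per transcript, so 1 peak can count more than once, as in Prc1, with 18 lines in 3 stretches in 3d DM replicate 1. They also came from 44 and 42 members in GM and from 27 and 16 in 3d DM. Whether line lengths and coding shares differed within the same genes was not tested. The exact permutation p was 0.333 for the covered length and for the coding share.

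Ube2c had 2 kinds of peak line. At the 3' end of the RefSeq gene (chromosome 2, 164772731 to 164772907 in 3d DM, 3' UTR) the fold enrichment over input was 12.2 and 13.9 in GM against 25.4 and 19.6 in 3d DM. The other lines, which a longer annotated Ube2c transcript brings in, lay between 164777190 and 164778201 on the same chromosome, apart from 25 bases inside the gene (from 164772202) that the line of 3d DM replicate 2 also took in, with folds of 6.56 and 3.78 in GM against 3.07 and 2.91 in 3d DM. That stretch is covered on the opposite strand by Tnnc2, the gene of fast skeletal troponin C (164777161 to 164779734), whose signal was 342 and 81.3 in GM against 8657 and 9468 in 3d DM. These lines were not counted to Ube2c in the covered lengths, line lengths, coding shares and sequence counts, and whether they arose from Tnnc2 RNA was not tested.

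Where a peak was called in all 4 lists, its highest fold could be compared between states. The members held 20 such peaks on 16 genes, of 5939 in the whole series. For 0 of the 20 did the highest fold enrichment within the peak pass the test in either direction (limma, adjusted p under 0.05), as for 0% of all such peaks in both directions. No member peak and 212 of the 5939 had an unadjusted p under 0.05 (limma). The log2 fold change of enrichment (GM minus 3d DM) was below 0 in 16 and above 0 in 4 of the member peaks, with a median of -0.31 and a range from -1.20 to 0.56, and standard errors between 0.39 and 0.68. That median depended on single libraries, and was -0.06 without GM replicate 2 and -0.50 without GM replicate 1. The median over all such peaks was 0.11. Both 3d DM folds were above both GM folds in 8 member peaks, against 9.35% of all such peaks, and the reverse held in 1, against 21.6%. A member could enter this comparison only through a peak that was still called at its low 3d DM signal. Lines were merged by genomic span, introns included, so the highest folds of a merged peak can come from lines of different length and place. In most member peaks both 3d DM lists covered fewer exonic bases than both GM lists. Ube2c, with its lines over Tnnc2 included, went the other way. Whether the higher 3d DM folds came from shorter lines was not tested.

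The 3' peak of Ube2c, the strongest of the 20, differed by -0.78 ± 0.68 on the log2 scale (adjusted p = 0.994, limma). Larger differences were fitted in both peaks of the kinetochore gene Cenpe and in the Cenpf peak at chr1:189658986-189685130 (-1.02), but not in the other Cenpf peak (-0.72). In Cenpe, the longer peak (chr3:135232995-135260082, coding sequence) had a fold of 10.0 and 4.82 in GM and of 16.9 and 15.0 in 3d DM, a log2 difference of -1.20 ± 0.61 (adjusted p = 0.994, limma). Its second peak (chr3:135225010-135230122) had 3.54 and 3.76 and 4.87 and 10.9. In Cenpf, the peak towards the 3' end (chr1:189642406-189656646) had 10.3 and 7.49 in GM against 18 and 11.7 in 3d DM, with no overlap, whereas the other (chr1:189658986-189685130) had 5.54 and 13.3 and 24.3 and 12.5 and overlapped. Smc4 went from 6.05 and 3.08 to 6.63 and 8.21, one Smc2 peak from 3.26 and 2.68 to 3.97 and 4.51, and Knstrn from 5.50 and 5.09 to 6.53 and 6.68. The first Tpx2 peak (chr2:152873157-152885218), at 4.20 and 4.53 in GM against 4.65 and 4.59 in 3d DM, hardly moved. Nuf2 was the 1 peak with both GM folds on top, at 4.99 and 4.56 and at 3.23 and 3.22 in 3d DM (0.56 ± 0.40). Mki67, at 11.6 and 7.40 in GM against 7.17 and 12.5 in 3d DM, Incenp, at 7.63 and 7.61 and at 5.87 and 9.19, and Sgo1, at 9.14 and 7 and at 6.88 and 7.1, overlapped between the states. So did the peaks of Aurkb, Cdca8, Ndc80, Top2a and Nusap1 and the second peaks of Smc2 and Tpx2.

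**Figure D5:**
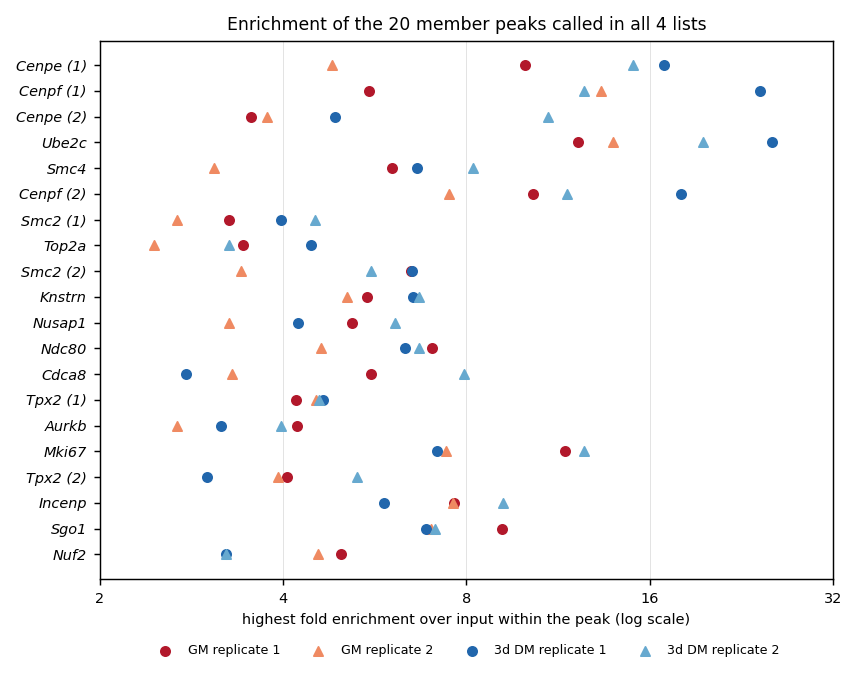
Highest fold enrichment of immunoprecipitated over input RNA (log axis) in each of the 4 libraries for the 20 member peaks called in all 4 lists, sorted by the log2 difference between the states, with numbers in brackets to tell apart 2 peaks of 1 gene. The blue 3d DM points lie to the right of the red GM points in 8 peaks, most widely in Cenpe, and to their left in Nuf2 alone.

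The sequence under the peaks was read from the mm10 genome on the strand of the transcript. The m6A consensus is called DRACH and was searched as its 18 words of 5 bases (A, G or T, then A or G, then AC, then A, C or T), with its form GGACT also counted by itself. On the members, peaks held 26.3 and 26.5 DRACH words per kb in GM against 28.2 and 27.9 in 3d DM, where all peaks held 23.0 and 22.7 in GM against 23.0 and 22.9 in 3d DM. GGACT stood at 1.10 and 1.22 per kb in GM and at 0.917 and 0.289 in 3d DM on members, where all peaks held 1.32, 1.45, 1.33 and 1.40 in the same order. In 3d DM replicate 2 these were 2 words in 6918 bases, so the value rests on few matches. Within the stretches under a peak in all 4 lists, members held 2 GGACT words in 6176 bases (0.324 per kb) and all shared peaks 1.49 per kb, while DRACH words stood at 27.5 and 23.7 per kb. The part of the member stretches that lay wholly in coding sequence came to 39 windows on 12 genes and 4233 bases, and 29 of these windows held a DRACH word and 1 held GGACT.

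The following 3 windows were under a peak in all 4 libraries, lay wholly in coding sequence, and were those of 60 to 130 bases with at least 4 DRACH words. They show what the consensus looks like in the long kinetochore and chromosome proteins whose peaks lasted into 3d DM. Capitals mark DRACH words, which may adjoin or overlap.
Cenpe, chr3:135249676-135249766, plus strand: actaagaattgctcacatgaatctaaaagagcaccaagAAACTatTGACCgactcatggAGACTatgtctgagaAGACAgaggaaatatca
Cenpf, chr1:189653445-189653565, minus strand: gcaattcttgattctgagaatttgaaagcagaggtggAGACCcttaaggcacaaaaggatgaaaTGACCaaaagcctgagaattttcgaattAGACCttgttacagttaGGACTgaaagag
Mki67, chr7:135699333-135699453, minus strand: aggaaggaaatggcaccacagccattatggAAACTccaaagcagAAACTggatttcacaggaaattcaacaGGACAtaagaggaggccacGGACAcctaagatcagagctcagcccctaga
The Cenpf window held the 1 GGACT word of the coding windows. It lies in the peak of Cenpf whose fold was 10.3 and 7.49 in GM against 18 and 11.7 in 3d DM. A match of the consensus shows where the mark could sit, not that it was present on that base.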

How the data were processed

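RNA-seq and MeRIP-seq of C2C12 cells in GM and 3d DM (2 input and 2 immunoprecipitated libraries each) were analysed from the deposited files. Per the labels and methods, the authors used HISAT2 (2.1.0) with the mm10 genome, and exomePeak gave peaks for each immunoprecipitated library over its own input. The deposited expression table holds a normalized signal per Entrez gene, labelled as TMM by the authors and made with edgeR. The deposited peak lists give a p-value and a fold (the ratio of immunoprecipitated to input RNA) per transcript. Neither gives read numbers, so depth is unknown.

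A gene was tested where 2 or more of the 4 libraries reached 2 cpm of their column total (a signal of 25.1). The test was limma 3.58.1 (R 4.3.3) on log2(value + 1), with the trend option, and p-values were adjusted by Benjamini-Hochberg (threshold 0.05). Peak lines on the same strand sharing at least 1 base were merged, and the highest fold of each list was tested on the log2 scale for peaks in all 4 lists. An exact permutation test, two-sided, was used for counts of members with a peak (scipy 1.17.1). The limma fits were first tested on simulated data. The members and lists were chosen with earlier results of these data known. Values in every library are given for the members with the largest and smallest change of each role, those not called, and those with a peak in all 4 lists, and 3 genes in each direction are named from the other list. Anapc15, Cdc27, Tnnc2 and Ube2s were added after their values were seen. No promoter was found in the RefSeq table for Aurkb, Cdc25c, Foxm1, Incenp, Smc4, Spc24 and Tpx2. Alternatives are given at the end. The authors' comparison files were not used.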

Additional observations from a re-analysis of the deposited data

How the results depend on the processing

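The direction of all 50 members (higher in GM) held under every alternative that was run. The count of members called higher in GM stayed at 49 with a filter on 3 libraries, pseudocounts of 0.1 and 4, no intensity trend and median-of-ratios rescaling. With trimmed-mean rescaling it was 50. It was 0 with no filter on low values, where all 27179 genes entered the fit and 74 of them were called higher in GM. With single libraries left out it ranged from 10 to 48, the lowest without 3d DM replicate 1, and the counts without GM replicate 2 and without 3d DM replicate 2 were 47. Calls of all tested genes towards GM were also fewest without 3d DM replicate 1, so the lower count was not particular to the members. In that fit the members' median log2 fold change was 2.23, where that of all tested genes was -0.03. No member was called higher in 3d DM under any of these alternatives. With the replicate number as a replicate block the count was 49, against 705 tested genes higher in GM (1136 without it). Deviations of same-numbered libraries from their group means correlated at 0.29 over genes, but 2 pairs do not show that the numbers pair the samples. Over all tested genes the calls higher in GM made up 58.7%, and 48.4% after median-of-ratios and 49.7% after trimmed-mean rescaling.

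The difference in members with a peak, 21.5, was 26.5 for peaks with a p-value of at most 1e-05, 21.5 with the replicate block and 16 to 27 with single libraries left out. It moved to 6 for peaks of at least 4-fold enrichment. No member peak passed the test for enrichment under any setting, including merging by exon blocks, which was added after seeing the data and split Ube2c into 2 peaks. Only 4 shared member peaks were left with a p-value of at most 1e-05. With 2 libraries per state, unknown depth and low 3d DM signals, small differences in enrichment could not be detected.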
